A study of Mus musculus with 12 samples.

Results

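The secreted Wnt antagonists were examined in single tendon cells through 9 genes, Dkk1, Dkk2, Dkk3, Sfrp1, Sfrp2, Sfrp4, Sfrp5, Wif1 and Frzb, out of the 55418 genes in the count table. The set was chosen by the measured counts of Dkk3, which lay almost entirely in WT cells, so the contrast of Dkk3 is given as a description and supports nothing further. The study picked single ScxGFP+ cells, which carry a fluorescent reporter driven by regulatory elements of the tendon transcription factor Scx, with a micromanipulator from uninjured mouse Achilles tendons digested with collagenase. There were 6 Tnmd-/- ScxGFP+ cells and 6 Tnmd WT ScxGFP+ cells, all untreated and on a C57BL/6 background. The knockout of Tnmd (tenomodulin) is constitutive and the gene is X-linked, and the WT group of the study could include heterozygous females. No age is given for the donors of these cells. The labels tie no cell to an animal, so each genotype was treated as 1 sample, no test between genotypes was made, and differences are described by the spread over cells. Cells are named by their picked number.

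Wnt proteins are secreted, lipid-modified ligands that bind Frizzled receptors. With the co-receptors Lrp5 and Lrp6 they stabilize β-catenin, which then activates target genes through TCF/LEF factors, and other Frizzled signals run without β-catenin. The secreted frizzled-related proteins (Sfrp1, Sfrp2, Sfrp4, Sfrp5 and Frzb, also called Sfrp3) and Wif1 bind the Wnt ligands themselves. Dkk1 and Dkk2 bind Lrp5 and Lrp6 instead, and Dkk3 is a divergent Dickkopf protein whose binding to these co-receptors is disputed. Wnt signaling is a known regulator of cartilage and bone formation.

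Upstream sequence is shown for Wif1, the antagonist with the most counts, and for Dkk2, because the highest Tnmd-/- values of both came from the same cell. Both windows come from RefSeq on GRCm38.p6, run 5′ to 3′ on the plus strand, cover bases -250 to -51 from the RefSeq start and lie upstream of the GENCODE start as well. Capitals mark the core letters of a TCF/LEF site, CTTTG, on either strand.
Wif1, chr10:121033754-121033953: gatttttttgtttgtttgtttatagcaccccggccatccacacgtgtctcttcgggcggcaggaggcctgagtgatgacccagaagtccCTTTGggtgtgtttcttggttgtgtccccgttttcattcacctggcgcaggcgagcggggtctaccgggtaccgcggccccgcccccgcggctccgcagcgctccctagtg
Dkk2, chr3:132085042-132085241: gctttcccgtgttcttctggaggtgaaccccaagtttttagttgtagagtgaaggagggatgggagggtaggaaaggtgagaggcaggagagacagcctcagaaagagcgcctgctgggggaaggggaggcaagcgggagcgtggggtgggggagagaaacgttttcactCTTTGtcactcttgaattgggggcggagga
Each window held 1 CTTTG match, and 42.3% of the 32851 promoter windows of the same length held at least 1. The E-box CANNTG, the kind of site that helix-loop-helix factors such as Scx bind, had 2 matches in the Wif1 window and 0 in the Dkk2 window, against at least 1 match in 59.0% of all windows. None of these matches overlapped, and a match is a run of letters, not a measured site.

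Total counts were 892713 to 10333351 per Tnmd-/- cell (median 6026580) and 4516036 to 13613080 per WT cell (median 9005430), or 35088506 and 53439236 in the genotype sums. Tnmd itself had 8 counts over the 6 Tnmd-/- libraries and 10185 over the 6 WT libraries, 99.9% of the latter in WT cell 14. The remaining 5 WT cells had at most 7 counts each and the Tnmd-/- cells at most 5. In all of these cells Tnmd therefore gave no check of the genotype label. Scx had 3 and 2074 counts and reached 10 counts in 3 of 6 WT cells and 0 of 6 Tnmd-/- cells. The 10 tendon fibroblast markers, of which the proteoglycan gene Dcn had the most counts, summed to 1685 to 87463 in Tnmd-/- cells, in counts per 1000000 (CPM), and to 30463 to 176924 CPM in WT cells. Tnmd-/- cells 3 and 7 stood apart with 1504775 and 892713 counts, and mitochondrial genes took 51.8% of the counts in cell 3. The study marks cells 9, 10 and 20 (Tnmd-/-) and 4, 5 and 10 (WT) as less degraded, and values are also given within each level.

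The 9 genes fell into 3 groups by how widely they were counted. Dkk3 and Wif1 were counted in several cells of both genotypes. Frzb, Dkk2, Sfrp1 and Sfrp2 each reached 10 counts in a single cell. Dkk1, Sfrp4 and Sfrp5 had 0 counts in all 12 cells. A sum of 0 allows up to 3 counts, or 0.0855 CPM over the Tnmd-/- libraries and 0.0561 CPM over the WT libraries. At this depth the 3 genes were not detected, and because amplified reads carry no molecular identifiers, floors and intervals cover counting error only. A transcript lost before sequencing would also read as 0, so these floors do not limit the level in the cell.

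**Figure D1:**
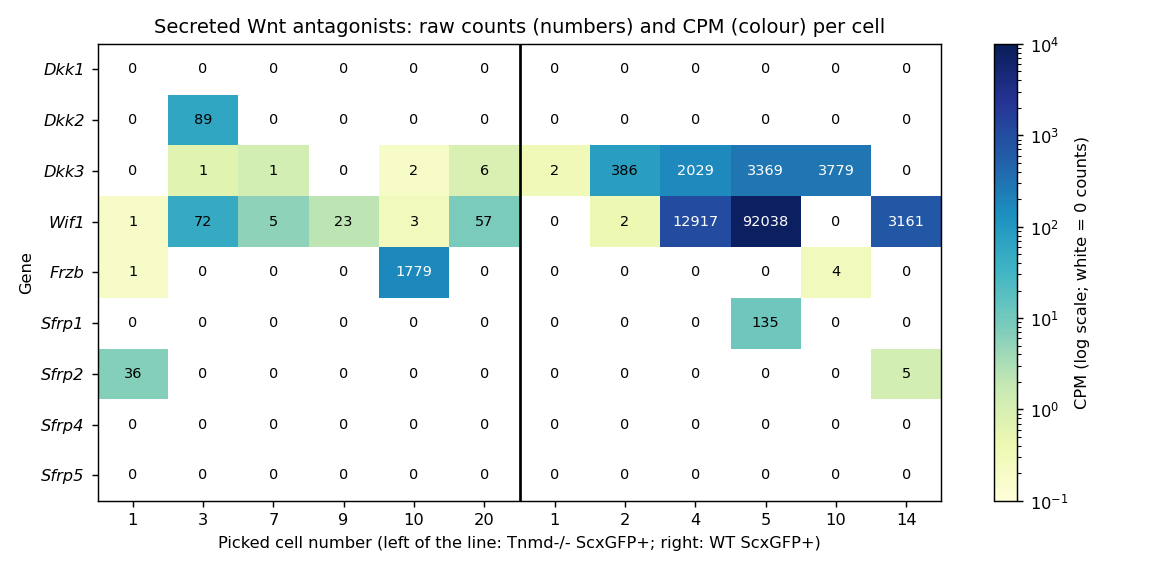
Raw counts (numbers) and CPM (colour, log scale, white for 0 counts) of the 9 antagonists in each of 12 cells, with 6 Tnmd-/- cells left of the line and 6 WT cells right of it. Wif1 in WT cell 5 (92038 counts) is the darkest field, Dkk3 is at 386 to 3779 counts in 4 WT cells, and Dkk1, Sfrp4 and Sfrp5 are at 0 throughout.

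Antagonist transcripts were unevenly spread over the cells. At least 10 counts were seen for 0 members in 2 cells (Tnmd-/- cell 7 and WT cell 1), for 1 member in 7 cells, for 2 members in 2 cells and for 3 members in WT cell 5. The 9 genes together took 2.23 to 173 CPM in the Tnmd-/- cells (median 8.25) and 0.334 to 7949 CPM in the WT cells (median 489). These ranges overlapped, since WT cell 1 lay below every Tnmd-/- cell. Summed by genotype, the members reached 59.2 CPM (Tnmd-/-) and 2205 CPM (WT), but without Tnmd-/- cell 10 the former was 11.8 CPM, and without WT cell 5 the latter was 538 CPM. Frzb made up 85.7% of the Tnmd-/- counts, nearly all from cell 10, and Wif1 91.8% of the WT counts. Without Tnmd-/- cell 10, 292 member counts remained in that genotype, and Wif1 led there too with 158 of them.

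Dkk3 (ENSMUSG00000030772, chromosome 7 of GRCm38, 112116017 to 112159057, minus strand) was the antagonist by which the set was chosen. In the WT cells it had 3779 counts in cell 10, 3369 in cell 5, 2029 in cell 4, 386 in cell 2, 2 in cell 1 and 0 in cell 14. In the Tnmd-/- cells it had 6 counts in cell 20, 2 in cell 10, 1 each in cells 3 and 7, and 0 in cells 1 and 9. On the CPM scale WT cells ran from 0 through a median of 121 to 280, and Tnmd-/- cells from 0 through 0.429 to 1.12. The genotypes therefore overlapped at the bottom of the range: 4 WT cells lay far above every Tnmd-/- cell, and WT cells 1 and 14 lay among the Tnmd-/- cells. All 3 less degraded WT cells were among the 4 high ones, while the shallowest library, Tnmd-/- cell 7, held the highest Tnmd-/- level from a single count.

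The summed Dkk3 level was 0.285 CPM for Tnmd-/- (95% Poisson interval 0.137 to 0.524) and 179 CPM for WT (175 to 183). Dividing the Tnmd-/- value by the WT value gave a pooled log2 ratio of -9.29, with an exact binomial counting interval of -10.36 to -8.42. Among less degraded cells alone it was -9.69, and among more degraded cells, on 2 against 388 counts, it was -6.61. At least 10 counts in at least 4 WT cells and in no Tnmd-/- cell, the Dkk3 pattern, was seen in 0.522% of the 9768 genes whose counts added up to 20 or more, and the reverse pattern in 0.225%. The first share uses the contrast that chose Dkk3, so nothing is read from it. With every cell thinned to 892713 counts, Dkk3 kept 240, 247, 143 and 61 counts in WT cells 10, 5, 4 and 2, and no Tnmd-/- cell had more than 1.

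Wif1 (ENSMUSG00000020218, chromosome 10, 121033960 to 121100650, plus strand) encodes a secreted protein that holds Wnt ligands away from their receptors. The WT cells with Wif1 and those with Dkk3 overlapped in part. WT cell 5 had 92038 counts, cell 4 had 12917, cell 14 had 3161, cell 2 had 2, and cells 1 and 10 had 0. In the Tnmd-/- cells there were 72 counts in cell 3, 57 in cell 20, 23 in cell 9, 5 in cell 7, 3 in cell 10 and 1 in cell 1. Wif1 was thus counted in 6 of 6 Tnmd-/- cells and in 4 of 6 WT cells, and reached 10 counts in 3 cells of each genotype. In CPM the Tnmd-/- cells ran from 0.188 through a median of 3.91 to 47.8, and the WT cells from 0 through 350 to 7657. The 3 high WT cells stood above all Tnmd-/- cells, whereas the 3 low WT cells fell to or below the lower Tnmd-/- values.

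The summed Wif1 level was 4.59 CPM (3.91 to 5.35) for Tnmd-/- and 2023 CPM (2011 to 2035) for WT, which gave a pooled log2 ratio of -8.78 (-9.02 to -8.56). WT cell 5 gave 85.1% of the WT sum, and leaving this cell out gave -6.40. Within the less degraded cells the ratio was -9.83 and within the more degraded cells -4.35. Per length, in transcripts per 1000000 (TPM), Wif1 stood at rank 17 of the 5143 genes detected in WT cell 5, at rank 136 of 5636 in cell 4 and at rank 229 of 3505 in cell 14. In Tnmd-/- cell 3, where it was highest for that genotype, it stood at rank 647 of 4384. In the 2 cells where both genes reached 10 counts, the TPM of Wif1 was 8.81 times that of Dkk3 in WT cell 4 and 37.8 times in WT cell 5. WT cells 2 and 10 had Dkk3 almost without Wif1, and WT cell 14 had Wif1 without Dkk3. WT cell 5 also held the highest level of Cspg4, the only one of 4 mural cell markers with a count in these cells, at 641 CPM against 0 to 44.3 CPM in the other WT cells and 0 to 118 CPM in the Tnmd-/- cells. The other 3 mural markers, Rgs5, Mcam and Myh11, had 0 counts, and whether cells of that type had a part in the Wif1 level was not tested.

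**Figure D2:**
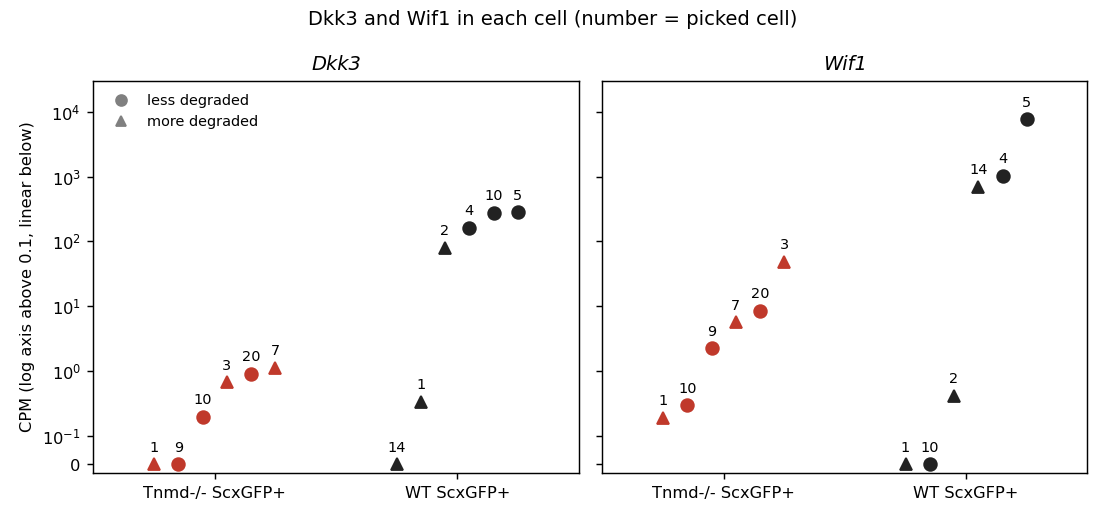
CPM of Dkk3 (left) and Wif1 (right) in each of 6 Tnmd-/- (red) and 6 WT (black) cells, on an axis that is logarithmic above 0.1 and linear below; circles are less degraded cells, triangles more degraded cells, and numbers name the cell. For Dkk3, 4 WT cells lie at 80.0 to 280 CPM and all Tnmd-/- cells at or below 1.12 CPM, while for Wif1, 3 WT cells lie at 700 to 7657 CPM and the Tnmd-/- cells spread from 0.188 to 47.8 CPM.

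Frzb (ENSMUSG00000027004, chromosome 2, 80411970 to 80447625, minus strand), a frizzled-related protein known from cartilage, was the main antagonist of the Tnmd-/- sum. It had 1779 counts in Tnmd-/- cell 10, 1 count in Tnmd-/- cell 1, 4 counts in WT cell 10 and none in the other cells. The pooled log2 ratio of 9.40 (8.05 to 11.28) therefore described a single cell, at 173 CPM and rank 873 of 4943 genes by TPM. Without that cell the sums were 1 against 4 counts and the ratio was -0.89. Tnmd-/- cell 10 also carried cartilage markers, with 10741 counts of Acan (aggrecan), 1930 of Hapln1 (a link protein of the aggrecan complex) and 425 of the transcription factor Sox9. Col2a1, Matn3 and Cnmd, the other 3 of the 6 cartilage markers, had no count in any cell. The list summed to 0 to 1330 CPM over the Tnmd-/- cells and 1.68 to 253 CPM over the WT cells, and Tnmd-/- cell 9, with 8768 counts of Acan and 4980 of Sox9, had 0 counts of Frzb. WT cell 10, the cell with 4 Frzb counts, had 1041 of Hapln1 and 354 of Acan. The same cells, Tnmd-/- cell 10 and WT cell 10, were the only 2 of the 12 with more than 2 counts of S100b, at 375 and 2352, which was listed as a glial marker and is also known from cartilage. The glial list of 4 genes summed to 0 to 37.7 CPM over the Tnmd-/- and 0 to 173 CPM over the WT cells. The part of these marker levels in the Frzb value was not tested.

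The remaining 3 antagonists with counts were each read in a single cell of the higher genotype. Dkk2 (ENSMUSG00000028031, chromosome 3, 132085292 to 132180304), which blocks Lrp5 and Lrp6, had 89 counts, all in Tnmd-/- cell 3, or 59.1 CPM there. Against 3 counts in the WT sum it was at least 5.50 higher on the log2 scale. Cell 3 was the cell with 51.8% mitochondrial counts, and in it Dkk2 stood at 28.4 TPM beside 35.1 TPM for Wif1. Sfrp1 (ENSMUSG00000031548, chromosome 8, 23411502 to 23449632) had 135 counts, all in WT cell 5, or 11.2 CPM. The bound against 3 counts in the Tnmd-/- sum was -4.88 on the log2 scale. Sfrp2 (ENSMUSG00000027996, chromosome 3, 83766321 to 83774316) had 36 counts in Tnmd-/- cell 1 and 5 in WT cell 14, a pooled log2 ratio of 3.45 (2.10 to 5.16). Leaving out Tnmd-/- cell 1 left 0 against 5 counts, an upper bound of 0.11. Of its exon bases 16.1% are shared with Gm26771, and how reads in shared bases were assigned is not given in the sources used here. Tnmd-/- cell 1 was also the cell with most counts of the endothelial marker Pecam1, at 160, with 4 of Tek and 0 of Cdh5, Kdr and Emcn. Endothelial markers summed to 0 to 30.9 CPM over the Tnmd-/- cells and at most 0.167 CPM over the WT cells, and their part in the Sfrp2 count was not tested. No exon bases of the other 8 antagonists are shared with another gene.

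Of the 6 members that also had 20 counts or more, 3 were at least 4-fold lower in the Tnmd-/- sum (Dkk3, Wif1 and Sfrp1) and 3 at least 4-fold higher (Frzb, Dkk2 and Sfrp2). The set was chosen by Dkk3, so the place of Dkk3 among the lower genes was known in advance. Its ratio also enters the median below. Over all 9768 genes at this minimum, 32.6% were at least 4-fold lower and 32.6% at least 4-fold higher, so ratios of this size were common between these cells. The median of the 6 ratios, with 1 CPM added to both sums, was -0.46, and 0.06 over all genes. In none of the 6 members did the CPM ranges of the genotypes part, which occurred for 0.041% of all genes, 0.0205% with every Tnmd-/- cell lower and 0.0205% with every Tnmd-/- cell higher. One cell held at least 90% of the counts of the higher genotype for 4 of the 6 members and for 57.3% of all genes. The lowest and highest deciles of the ratio over all genes, with sums of 0 set to 3 counts, were -8.17 and 8.33. Wif1 and Frzb lay outside them, as did Dkk3, by which the set was chosen.

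**Figure D3:**
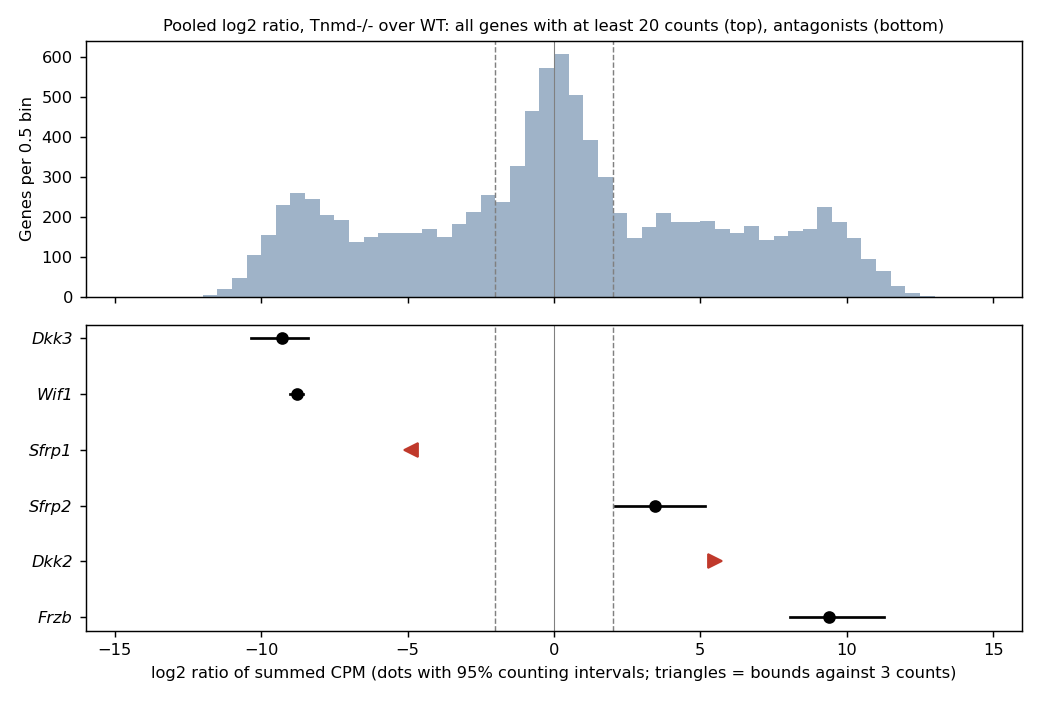
Pooled log2 ratios of summed CPM, Tnmd-/- over WT, for all 9768 genes with 20 or more counts as a histogram (top) and for the 6 antagonists that passed this minimum (bottom), with dots and 95% counting intervals, triangles for bounds against 3 counts, and dashed lines at a 4-fold difference. The antagonists split into 3 on each side, from -9.29 for Dkk3, by which the set was chosen, to 9.40 for Frzb, within the spread of the genes above them.

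The other genes of the pathway were sparse as well. Of 80 listed genes, 40 had 0 counts in all cells and 33 had at least 20 counts. Among these 33, 14 were at least 4-fold lower and 13 at least 4-fold higher in the Tnmd-/- sum, with a median log2 ratio of -0.44, against 32.6% of all genes each way. Without Tnmd-/- cell 9 the counts were 18 lower and 7 higher among 29 genes, beside 3390 lower and 2725 higher among all 9262 genes at this minimum. The median number of cells with 10 counts was 2 for these 33 genes, 2 for all genes at that minimum and 1 for the 6 antagonists.

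Ligands were few. Of 19 Wnt genes 13 had no count and 4 had at least 20 counts, each of them reaching 10 counts in at most 1 cell of a genotype. Wnt1 had 490 counts against 1, all 490 in Tnmd-/- cell 9, and Wnt5a, a ligand of the branch without β-catenin, had 21 counts in Tnmd-/- cell 10 and none in the WT cells. Wnt11 had 0 against 179 counts and Wnt9a 12 against 154. WT cell 5, the cell with the most Wif1, gave 98.3% of the Wnt11 counts, and WT cell 4 all of the WT counts of Wnt9a. Wls, which carries Wnt proteins to the cell surface, had 1678 and 6516 counts, a ratio of -1.35. WT cell 2 held 92.8% of the WT counts, without it the ratio was 2.31, and the sign also differed between the levels, with 4.48 in the less and -6.70 in the more degraded cells.

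Receptors and co-receptors, the counterparts of the antagonists, gave 5 genes at least 4-fold higher and 1 at least 4-fold lower in the Tnmd-/- sum among 8 with at least 20 counts, beside 32.6% of all genes in each direction. These counts turned on single cells, with 3 higher and 4 lower among 7 genes without Tnmd-/- cell 9, and 3 higher and 1 lower among 6 without cell 7. Over all genes, 2725 were higher and 3390 lower among 9262 without cell 9. Without cell 7 the values over all genes were 2923 higher and 3258 lower among 9529. Lrp5, a target of Dkk1 and Dkk2, had 1943 counts in Tnmd-/- cell 7 and 1 count in WT cell 10. Ryk, a Wnt receptor with an inactive kinase domain, had 4814 and 15 counts, 95.8% of the former in Tnmd-/- cell 9, and its log2 ratio of 8.93 was 4.85 without that cell. Lrp6 had 565 and 8171 counts, a log2 ratio of -3.25 (-3.37 to -3.12). Tnmd-/- cell 9 gave 96.8% of the 565, without it the ratio was -7.72, and among the more degraded cells it was -5.78. Lrp6 was the receptor gene seen in most WT cells, at 3315 counts in cell 5, 3104 in cell 4, 1728 in cell 2 and 17 in cell 14. WT cells 2, 4 and 5 thus had both Dkk3 and Lrp6, while WT cell 10 had Dkk3 with no Lrp6 count. Fzd3 was read in 1 cell of each genotype, with 918 and 1845 counts and a ratio of -0.40.

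Among other extracellular and membrane modulators, 2 of 5 genes with at least 20 counts were at least 4-fold lower and 2 at least 4-fold higher. The share over all genes was 32.6% in each direction. With a cell left out the 2 lower and 2 higher genes became 1 to 3 each. Trabd2b, a membrane protease that inactivates Wnt proteins, had 1259 and 3 counts and reached 10 counts in 2 Tnmd-/- cells. Lgr5 had 648 and 0 counts, 99.8% of them in Tnmd-/- cell 20, Lgr4 had 39 and 999 counts (6 of the latter outside WT cell 10, without which the ratio of -4.07 became 2.88 and without Tnmd-/- cell 20 -8.05), and Lgr6 had 0 and 71. All 3 are receptors of the R-spondins, which strengthen Wnt signals.

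In the cytoplasmic and nuclear core, 7 of 13 genes with at least 20 counts were at least 4-fold lower and 4 at least 4-fold higher, beside 32.6% of all genes in each direction. Without Tnmd-/- cell 9, 7 of 11 were lower and 1 was higher, beside 3390 lower and 2725 higher among all 9262 genes. Axin1, a scaffold of the β-catenin destruction complex, had 1 and 670 counts, all 670 in WT cell 5. The Dishevelled genes, which relay the Frizzled signal, differed in direction, each through a single cell. Dvl1 had 0 and 557 counts, 99.8% of the latter in WT cell 14. Dvl2 had 420 and 3 counts and Dvl3 75 and 0, with all 420 and all 75 in Tnmd-/- cell 9. Of 7 feedback targets, 5 had no count, including Axin2, Nkd1, Sp5 and Lef1, Nkd2 had 0 and 150 counts, and Ccnd1 (cyclin D1) had 0 and 901 counts, all in WT cell 4.

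**Figure D4:**
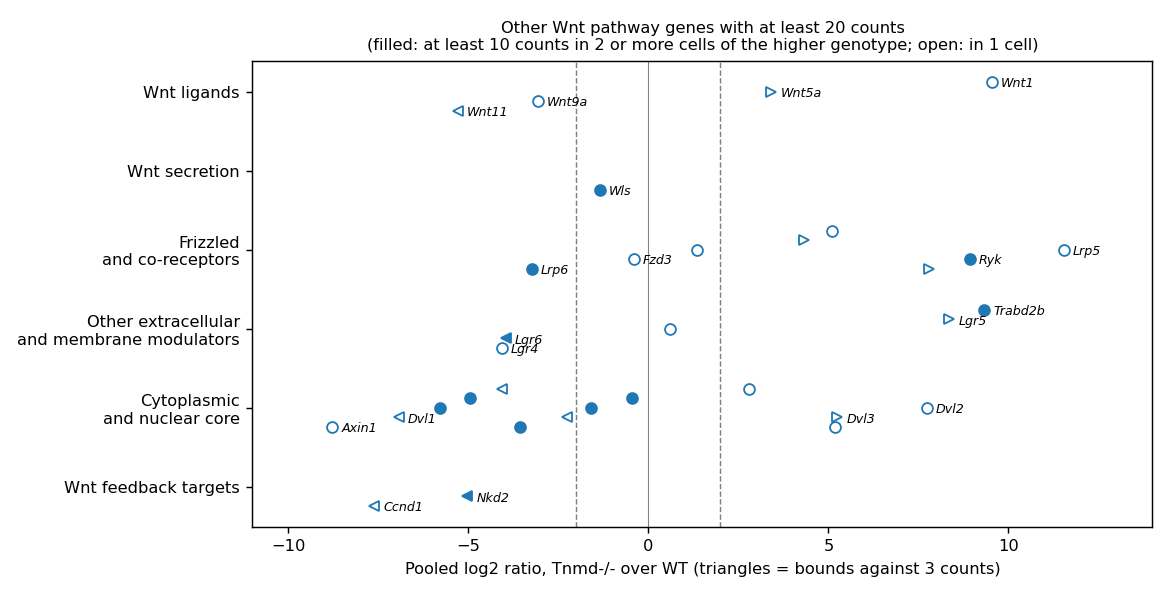
Pooled log2 ratios, Tnmd-/- over WT, of the 33 other Wnt pathway genes with at least 20 counts, by role; triangles are bounds against 3 counts, dashed lines mark a 4-fold difference, and filled symbols reached 10 counts in 2 or more cells of the higher genotype. Most symbols are open. On the higher side only Ryk at 8.93 and Trabd2b at 9.32 are filled. The other filled symbols, among them Lrp6 at -3.25, are more numerous and lie on the lower side.

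The genes whose levels followed Dkk3 most closely were found by the Spearman correlation of log2(CPM + 1) over the 12 cells among the 3191 genes that reached 10 counts in 4 or more cells. The cells share no library but differ in depth, degradation and genotype. Dkk3 was chosen for its genotype contrast, so genes with more counts in WT cells tend to rank high. The 5 genes named for Dkk3 all had more counts in the WT sum, and these values are descriptions. The closest gene was Npy (neuropeptide Y, chromosome 6, 49822710 to 49829507) with a correlation of 0.88, followed by Rnf181 with 0.86, Glmp with 0.84, Sde2 with 0.84 and Gpr107 with 0.83. Npy had 186202 counts in WT cell 10 and 158912 in WT cell 5, the 2 cells highest in Dkk3, and 3 counts in WT cell 14, which had no Dkk3. It differed from Dkk3 in Tnmd-/- cell 3, with 3727 Npy counts against 1 of Dkk3, and in WT cell 1, with 3591 against 2. For Wif1 the closest genes were Ccdc127 with 0.90, Emc2 with 0.87 and Cmss1 with 0.86. Of the exon bases of Glmp 20.3% and of Ccdc127 28.8% are shared with other genes. Dkk3 and Wif1 were correlated with each other at 0.25 over the same cells.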

How the data were processed

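The authors deposited raw counts per gene and cell. Reads of single-cell Smart-Seq2 libraries were trimmed with BBDuk, reads not exclusive to mouse were removed with BioBloom Tools, and, per the submitters' processing notes, the rest were aligned with STAR 2.5.1b to GRCm38 and counted with featureCounts of Subread 2.0.0. Uniquely mapped exonic reads were counted, and the strand setting is not given in the sources used here. The deposited table also gives each gene's summed exon length in bases, used for TPM. Coordinates came from GENCODE M21.

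The members and gene lists were chosen with earlier results of these data known. Counts were summed per genotype and divided by the summed total (CPM). Intervals are exact Poisson or Clopper-Pearson at 95%, and a sum of 0 was set to 3 counts. Where neither sum exceeded 3 counts, no ratio is given. Because no label names an animal, the authors' edgeR and DESeq2 tests over cells were not rerun. A gene was seen in a cell at 10 counts. Named were the members, Tnmd and Scx, at most 2 genes of each Wnt list in each direction by ratio, markers, and the 5 (Dkk3) or 3 (Wif1) genes of highest correlation. The degradation level was read from the study's heat map annotation. Normalization alternatives used edgeR 4.0.16 (TMM) and DESeq2 1.42.0 in R 4.3.3, and scripts ran in Python 3.11.15. Sums were tested on simulated Poisson counts without variation between cells. The measured cells vary far more, so this checked the calculation only. Protein sequences and the Dkk3, Sfrp1 and Sfrp4 promoters were not used here.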

Additional observations from a re-analysis of the deposited data

Results flagged for a closer look

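In 8 of the distributions of a member over the 6 cells of a genotype, the gap between the highest cell and the next, divided by the whole range, was above Dixon's 95% critical value for 6 samples. Cells of a genotype are not replicates, and a gene counted in only 1 cell passes this value through its zeros alone. No error rate is therefore read from it, and the values only mark how unevenly a gene was counted. The cells that stood apart were WT cell 5 for Wif1 (7657 CPM) and Sfrp1 (11.2 CPM), Tnmd-/- cell 3 for Wif1 (47.8 CPM) and Dkk2 (59.1 CPM), Tnmd-/- cell 10 for Frzb (173 CPM), WT cell 10 for Frzb (0.294 CPM, from 4 counts), Tnmd-/- cell 1 for Sfrp2 (6.78 CPM) and WT cell 14 for Sfrp2 (1.11 CPM, from 5 counts). Dkk3 was not among them in either genotype.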

How the results depend on the processing

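The pooled Dkk3 log2 ratio of -9.29 kept its sign under all alternatives run. It was -8.13 with equal weight for each cell, -8.03 with TMM factors, -5.37 with DESeq2 size factors, -4.56 as a difference of mean log2(CPM + 1) and -6.61 in the more degraded cells, and between -10.31 and -8.79 with each cell left out in turn. The 3 members at least 4-fold lower became 2 to 3 with a cell left out. The 3 members at least 4-fold higher became 0 as a difference of mean log2(CPM + 1), 1 in the less degraded cells, 1 at a minimum of 100 counts, and 2 to 3 with a cell left out. Members seen in WT cells were 3, and 2 to 3 with a cell left out, and those seen in Tnmd-/- cells were 4, and 3 to 4 with a cell left out. At a minimum of 1 count they were 5 in both genotypes. Of 93 values for the other members, 63 stayed within the counting interval, 29 moved outside it with the same sign, and 1 changed sign, Frzb without Tnmd-/- cell 10 (-0.89, against at most 9.91 with any other cell left out). Settings without a ratio are not among the 93. They include Dkk2 without Tnmd-/- cell 3 and Sfrp1 without WT cell 5, the only cells with counts of these genes. The intervals of the Dkk2 and Sfrp1 bounds are open on 1 side, so values past them that way count as within. The Sfrp1 bound was -0.07 with DESeq2 size factors. Sfrp2 without Tnmd-/- cell 1 (0 against 5 counts) had an upper bound of 0.11. It is among the 29, although an upper bound above 0 does not settle the sign. Leaving out both shallow Tnmd-/- cells, 3 and 7, chosen after seeing the data, gave -9.51 for Dkk3 and -9.62 for Wif1. Leaving out each cell for the sums and lists was also added after seeing the data. The ratio of Wls ranged from -2.84 to 2.31 and that of Lgr4 from -8.05 to 2.88. No paired analysis was possible because the values come from no test, and cell numbers shared by the genotypes (1 and 10) only name picked cells. Depth limits members at 0 counts, which could lie below the floor. The floor covers counting error only, not transcripts lost before sequencing.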
